A study of Mus musculus with 12 samples.

Results

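The genes described here encode 10 components of the perineuronal net, the matrix that wraps the cell body and proximal dendrites of some neurons. They were taken by symbol, as the rows of the count table whose Ensembl gene ID maps to Acan, Bcan, Ncan, Vcan, Hapln1, Hapln4, Tnr, Tnc, Ptprz1 or Has3, a rule that uses no measured value, although the genes were listed with earlier results of these data known. They are 10 of 55401 gene IDs in the table, and all 10 were among the 21958 genes that passed a filter on low counts and were tested. RNA came from the medial prefrontal cortex of male mice that had gone through extinction of a conditioned place preference for 2 weeks; in this test an animal learns to prefer a drug-paired chamber, and extinction weakens that choice. There were 3 groups of 4 libraries. One carried an adeno-associated virus with a scramble sequence and was given saline, one carried the same scramble virus and was given morphine, and one carried an adeno-associated virus for knockdown of 5-HT6R, a serotonin receptor, and was given morphine. All animals thus had a virus and the extinction period, and no group had the knockdown with saline. The sources used here do not give strain, age, the viral promoter or the share of cells reached. The labels do not say whether each library is a separate animal; the p-values therefore rest on the spread between these samples, part of which may be technical.

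In a perineuronal net, hyaluronan made by a membrane synthase forms the backbone. Lecticans, the chondroitin sulphate proteoglycans aggrecan, brevican, neurocan and versican, bind that backbone through an amino-terminal domain, and link proteins of the Hapln family hold the contact. Tenascins, above all tenascin-R, tie the lecticans together at their other end. In cortex such nets are best known around parvalbumin interneurons, where they close periods of juvenile plasticity, and removing them enzymatically has been used to weaken fear and drug memories. The same lecticans are also released by astrocytes and oligodendrocyte precursors into the loose matrix between cells, so RNA from whole tissue measures both forms of matrix together. In tissue RNA, fewer cells of a type and less RNA per cell cannot be told apart.

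Total counts ran from 41483220 to 65739423 per library. Htr6, which encodes the targeted receptor, ran from 4.35 to 7.98 CPM (counts scaled to library size) with scramble and saline, from 4.82 to 5.58 with scramble and morphine and from 3.82 to 5.46 with the knockdown, and it differed between the last 2 groups by -0.13 on the log2 scale (SE 0.18, edgeR adjusted p = 0.823). A lower level of the target was therefore not detectable, and Htr6 does not check the labels. All 78 marker genes of 9 cell types passed the filter. Summed over 8 markers, cortical excitatory neurons gave 2065 to 2573 CPM per library and striatal projection neurons 174 to 249 CPM. CT010467.1, a ribosomal RNA locus, took a share of counts that ran from 2.38 to 3.04% with scramble and morphine, below the 3.58 to 5.63% with scramble and saline and the 4.57 to 9.38% with the knockdown. Knockdown replicate 5 held the highest value of its group for Hapln1, Tnr, Ncan, Ptprz1 and Has3, and the lowest for Hapln4. Scramble saline replicate 4 held the lowest of its group for Bcan, Hapln1 and Ptprz1, and the highest for Ncan, Vcan, Hapln4 and Has3. Values of Hapln1, Tnr and Bcan are given with and without those libraries.

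The net genes differed far more from each other than between groups. Per kilobase of merged exons, Bcan, the gene of brevican, stood highest at 52.6 ± 3.73 CPM per kilobase (SD, n = 12), above 96.7% of 21921 genes. Ncan, the gene of neurocan, followed at 32.1 ± 1.89 and Hapln4, a link protein known as Bral2, at 21.2 ± 4.5. Tnr, tenascin-R, stood at 15.1 ± 1.32 and Ptprz1, a receptor phosphatase whose secreted form is the proteoglycan phosphacan, at 13.1 ± 1.02. A mean ratio of 4.12 from Ptprz1 separated these 5 genes from Hapln1, the link protein known from cartilage, at 3.30 ± 0.69. Below it lay Vcan, versican, at 1.3 ± 0.17, Tnc, tenascin-C, at 0.78 ± 0.21, the hyaluronan synthase Has3 at 0.45 ± 0.06 and Acan, aggrecan, at 0.34 ± 0.08. Acan, whose protein is the one most used to stain nets, was thus the lowest of the 10, above 20.7% of genes.

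**Figure D1:**
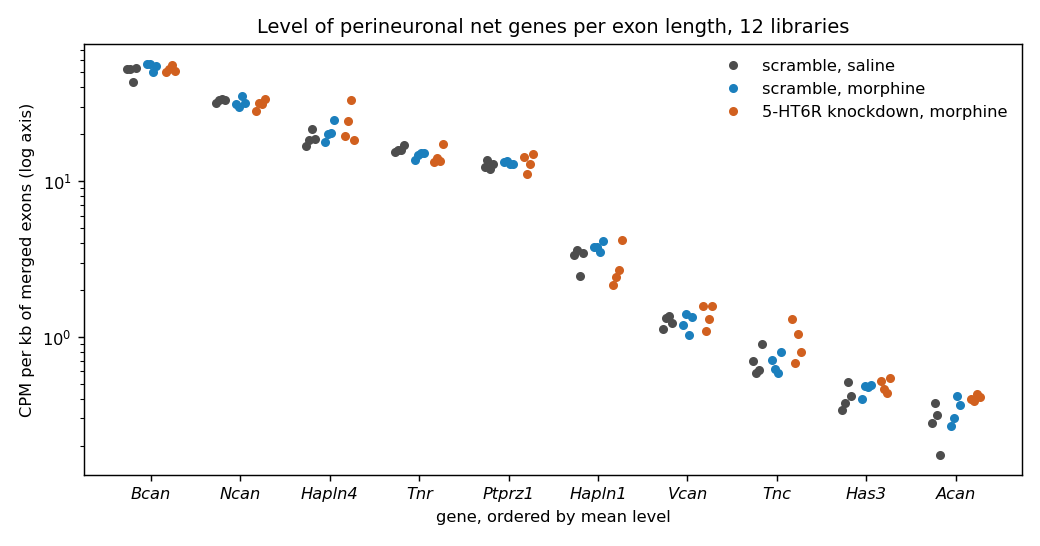
Level of each net gene in CPM per kilobase of merged exons (log axis) in 12 libraries, 4 per group, with genes ordered by their mean. Levels run from Bcan at a mean of 52.6 to Acan at 0.34 CPM per kilobase, and the 3 groups lie close together at each gene.

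The order held within libraries almost everywhere. Of the 9 neighbours in it, 7 stood in the same order in 12 of 12 libraries, and Ncan over Hapln4 and Tnr over Ptprz1 in 11 of 12 each. Tnr and Ptprz1 differed by a mean ratio of 1.16 and overlapped in range (13.3 to 17.3 against 11.1 to 14.9 CPM per kilobase). Their order rests on the length used: with the longest annotated transcript in place of all merged exons, Ptprz1 stood at 23.1 CPM per kilobase, above both Hapln4 at 22.8 and Tnr at 15.9, and in that setting, chosen after seeing the data, Tnr was above Ptprz1 in 0 of 12 libraries. On the CPM scale, Bcan, Ncan, Tnr and Ptprz1 took between 81.9 and 88.0% of the summed CPM of the 10 genes. That sum ran from 925 to 981 CPM with scramble and saline, from 940 to 984 with scramble and morphine and from 913 to 1017 with the knockdown, so its ranges overlapped in all 3 groups.

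The promoter windows of these genes differed widely in their CG content. RefSeq windows of 300 bases on GRCm38.p6, from 250 before to 50 after a start site, were held for 8 of the 10 genes. Shown are those of Bcan and Acan, the highest and lowest genes per kilobase, and those of Hapln1 and Tnr, the 2 with the fewest CG dinucleotides. They were chosen after their values were seen, and RefSeq starts can differ from those of GENCODE, as for Hapln1, Acan and Bcan. Each is written 5′ to 3′ on the gene's own strand with every CG in capitals, at chr3:88000307-88000606 (minus), chr7:79052976-79053275 (plus), chr13:89540386-89540685 (plus) and chr1:159523519-159523818 (plus).
Bcan: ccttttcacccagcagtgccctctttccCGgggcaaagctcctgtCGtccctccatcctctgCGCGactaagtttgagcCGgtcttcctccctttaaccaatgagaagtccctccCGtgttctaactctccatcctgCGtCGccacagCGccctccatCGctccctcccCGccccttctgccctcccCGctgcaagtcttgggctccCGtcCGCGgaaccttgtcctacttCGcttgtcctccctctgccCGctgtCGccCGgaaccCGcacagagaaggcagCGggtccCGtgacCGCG
Acan: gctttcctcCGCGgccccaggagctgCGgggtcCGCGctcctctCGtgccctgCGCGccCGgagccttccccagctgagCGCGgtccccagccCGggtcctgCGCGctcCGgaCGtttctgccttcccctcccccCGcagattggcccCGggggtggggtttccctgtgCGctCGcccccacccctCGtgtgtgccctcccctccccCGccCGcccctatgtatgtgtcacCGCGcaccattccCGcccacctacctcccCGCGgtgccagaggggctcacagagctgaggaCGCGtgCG
Hapln1: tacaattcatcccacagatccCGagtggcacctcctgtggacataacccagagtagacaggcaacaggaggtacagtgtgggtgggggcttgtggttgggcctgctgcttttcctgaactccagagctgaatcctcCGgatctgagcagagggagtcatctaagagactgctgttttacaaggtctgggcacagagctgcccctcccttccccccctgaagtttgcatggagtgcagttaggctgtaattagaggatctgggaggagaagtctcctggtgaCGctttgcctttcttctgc
Tnr: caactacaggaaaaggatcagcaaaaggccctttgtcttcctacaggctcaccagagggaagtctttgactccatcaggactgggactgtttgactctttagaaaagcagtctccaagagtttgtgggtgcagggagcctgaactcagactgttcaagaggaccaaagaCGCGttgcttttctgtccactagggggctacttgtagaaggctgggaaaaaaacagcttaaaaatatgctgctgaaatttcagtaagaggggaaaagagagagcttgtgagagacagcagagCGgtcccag

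The window of Acan held 31 CG dinucleotides and that of Bcan 24, against a median of 7 over 32851 windows. Those of Hapln1 and Tnr held 3 each, and 31.4% of all windows held 3 or fewer. The letters GGGCGG, the core of a GC box, lay on either strand in 7 of the 9 windows of these genes, Tnc having 2 windows, and in 35.7% of all windows. They were in neither the Hapln1 nor the Tnr window. TATAAA on either strand lay in the Ncan window and both Tnc windows, and in 13.6% of all. Both the highest and the lowest gene thus had a window rich in CG.

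In the mouse genome each lectican gene sits beside a link protein gene, with no coding gene between them in the GENCODE annotation of mm10. Ncan (chromosome 8, 70093085 to 70120873, minus strand) and Hapln4 (70083457 to 70090862, plus) lie 2.2 kilobases apart. Vcan (chromosome 13, 89655312 to 89742509, minus) and Hapln1 (89539796 to 89611652, plus) lie 43.7 kilobases apart. Bcan (chromosome 3, 87987531 to 88000230, minus) lies 21.5 kilobases from Hapln2, and Acan (chromosome 7, 79053483 to 79115099, plus) ends 2 bases from Hapln3. The pairs ran in no common ratio. Ncan stood above Hapln4, while Hapln1 stood above Vcan in 12 of 12 libraries with a mean ratio of 2.59. Hapln2, a link protein of myelinated axons, was at 5.82 CPM per kilobase beside Bcan at 52.6, and Hapln3 at 0.378 beside Acan at 0.344.

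The first comparison asked what morphine left in mice with the scramble virus. None of the 10 net genes passed, and 6 of them lay above 0 and 4 below. With Benjamini-Hochberg adjustment, edgeR's quasi-likelihood fit called 0 of 10 net genes where it called 0% of all 21958 genes. DESeq2 also called 0 of 10, beside 4 genes over all, and limma voom called 0 of 10. In edgeR 0 of 10 had an unadjusted p under 0.05 where 3.48% of all genes did. The median log2 fold change of the 10 was 0.08, beside -0.001 over all genes tested, 49.5% of which lay above 0.

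Among the lecticans, Bcan gave 213.0, 213.6, 175.7 and 218.4 CPM in scramble saline replicates 2, 3, 4 and 5, and 231.5, 231.1, 205.6 and 222.9 in scramble morphine replicates 1, 3, 4 and 5. Replicate 4 of saline lay well below the other 3, and the groups overlapped. This gave 0.12 on the log2 scale (SE 0.07, edgeR adjusted p = 0.999), with a 95% interval of the fold from 0.977 to 1.21. Without saline replicate 4 it was 0.048 (SE 0.06). Ncan was the steadiest of the net genes, with a coefficient of variation of 5.88% over 12 libraries, and its interval ran from 0.883 to 1.07. On the log2 scale Acan was at 0.24 (SE 0.23) and Vcan at -0.02 (SE 0.13), with intervals from 0.847 to 1.65 and from 0.819 to 1.19.

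Tnr was the 1 net gene of 10 whose libraries did not overlap between these groups, as held for 3.32% of all genes. It gave 198.6, 204.6, 205.4 and 218.5 CPM with saline and 175.1, 190.6, 194.6 and 196.6 with morphine. The change was -0.13 on the log2 scale (SE 0.08, edgeR adjusted p = 0.999), and between -0.15 and -0.095 with each library left out. The gap between the groups was narrow, from 196.6 to 198.6 CPM. Tnr shares 443 exonic bases with the antisense gene Gm38039, and the sources used here do not say whether counting used the strand. The link protein genes Hapln1 and Hapln4 had log2 fold changes of 0.24 (SE 0.17) and 0.14 (SE 0.17), and without saline replicate 4 of 0.13 and 0.21. Tnc was at -0.03 (SE 0.20), Ptprz1 at 0.05 (SE 0.08) and Has3 at 0.16 (SE 0.18), or 0.28 without saline replicate 4.

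**Figure D2:**
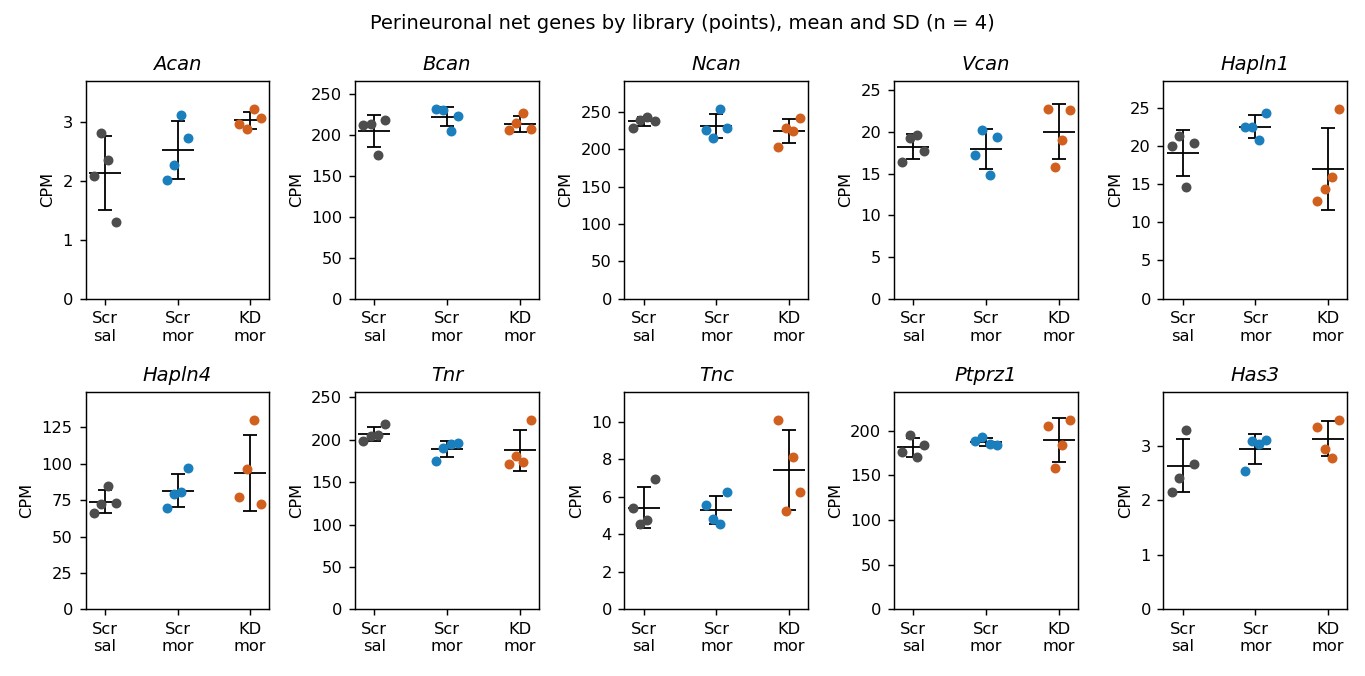
CPM of each net gene by library, with 4 libraries per group as points and the group mean and SD as black bars; Scr sal, Scr mor and KD mor are scramble with saline, scramble with morphine and knockdown with morphine, and each axis starts at 0. Hapln1 shows 3 knockdown libraries below all scramble morphine libraries and 1, replicate 5, above them, and Tnr with saline lies just above Tnr with scramble and morphine.

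Knockdown of 5-HT6R in mice given morphine was read against the scramble virus in mice given morphine. None of the 10 net genes passed over all libraries, and 6 lay above 0 where 50.7% of all genes did. Hapln1, the link protein gene, and Tnc lay farthest from 0, in opposite directions, and the abundant genes Bcan, Ncan, Tnr and Ptprz1 lay between -0.06 and 0.02 on the log2 scale. In edgeR 0 of 10 were called, beside 0% of all genes. DESeq2 called 0 of 10, beside 157 genes over all, and limma voom called 0 of 10. At an unadjusted p under 0.05 there were 2 of 10, where 12% of all genes had one, and 0 of 10 had libraries that did not overlap, where 5.85% of all genes did.

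Hapln1 gave 12.79, 14.32, 15.92 and 24.75 CPM in knockdown replicates 1, 2, 3 and 5, and 22.41, 22.42, 20.69 and 24.34 in scramble morphine replicates 1, 3, 4 and 5. In 3 knockdown libraries it lay below all 4 scramble morphine libraries, and in knockdown replicate 5 it was the highest of all 12 libraries. The means were 16.9 ± 5.36 against 22.5 ± 1.49 CPM (SD, n = 4), which is -0.40 on the log2 scale (SE 0.17, edgeR adjusted p = 0.385). Without knockdown replicate 5 the change was -0.65 on the log2 scale (SE 0.13, edgeR adjusted p = 0.0271), and Hapln1 was among the genes that passed. Those were 375 of 22537 genes tested, or 1.66%, of which 159, or 0.706% of those tested, were lower. Once the CT010467.1 share entered as a covariate, Hapln1 was at -0.06 (adjusted p = 0.994). That share ran from 2.38 to 3.04% with scramble and morphine and from 4.57 to 9.38% with the knockdown. It and the group cannot be told apart in this comparison. Over all alternatives run the adjusted p of Hapln1 lay between 0.00195 and 0.994. The lowest came from leaving out both knockdown replicate 5 and scramble saline replicate 4, where 5.78% of 22265 genes passed and 3% were lower, a choice made with the values of these libraries known.

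**Figure D3:**
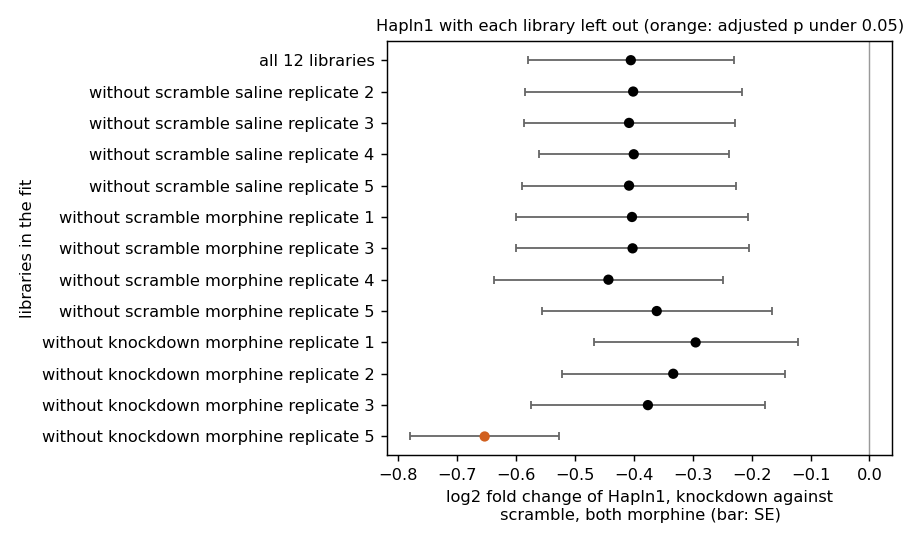
Log2 fold change of Hapln1 between knockdown and scramble, both with morphine, over all 12 libraries and with each library left out; bars are SE and orange marks an edgeR adjusted p under 0.05. The value runs from -0.65 without knockdown replicate 5 to -0.30 without knockdown replicate 1, and only the first passed.

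Astrocyte markers were high and low in some of the same libraries as Hapln1. Their summed CPM over 11 genes, of which Slc1a2 had a mean of 2282 and Gfap of 643, was 3901, 3359 and 3686 in knockdown replicates 1, 2 and 3, and 5053 in knockdown replicate 5, the highest of the 12 libraries. With scramble and morphine it ran from 4043 to 4769. Among knockdown replicates 1, 2 and 3 the order of the sums was not that of Hapln1. In scramble saline replicate 4, where Hapln1 was at 14.59 CPM against 19.91 to 21.30 in the other saline libraries, it was 2959, the lowest of the 12. The other saline libraries lay between 3943 and 4821. Of the 11 markers, 3 lay above 0 and 8 below between knockdown and scramble with morphine. The 1 marker at an unadjusted p under 0.05, Aldh1l1, was higher, at 0.21 (edgeR adjusted p = 0.363). No marker was at 0 counts, and the part of the markers in the Hapln1 values was not tested.

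Tnc, a tenascin that astrocytes and fibroblasts make, gave 10.08, 5.25, 8.11 and 6.25 CPM in knockdown replicates 1, 2, 3 and 5 and 5.54, 4.83, 4.55 and 6.23 with scramble and morphine. The groups overlapped, and knockdown replicates 1 and 3 were the 2 highest of the 12 libraries. The change was 0.49 on the log2 scale (SE 0.20, edgeR adjusted p = 0.369), with a fold between 1.04 and 1.89 in its 95% interval. Leaving out knockdown replicate 1 gave 0.30. Adding the share at CT010467.1 as a covariate, which cannot be told apart from the group, gave 0.10. Markers of meningeal fibroblasts and mural cells, all 11 of them above 0 in this comparison and none at 0 counts, summed to 518, 375, 430 and 373 CPM in the same 4 knockdown libraries and to 269 to 395 CPM with scramble and morphine, and their part was not tested. Tnc shares 176 exonic bases with a transcript on the other strand.

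Hapln4, the other link protein gene, stood on the opposite side of 0 from Hapln1, at 0.20 (SE 0.16, edgeR adjusted p = 0.664). Its knockdown libraries gave 76.8, 96.2, 129.9 and 72.4 CPM in replicates 1, 2, 3 and 5, and scramble morphine libraries 69.7 to 97.0. Knockdown replicate 3 alone lay above the scramble range, and the log2 fold change was 0.0028 without it. With the share at CT010467.1 as a covariate, which cannot be told apart from the group, the log2 fold change was 0.58. Knockdown replicate 3 also had the highest Pvalb, the gene of parvalbumin, at 21.8 CPM against 11.4 to 16.9 in the other 11. Over the 10 parvalbumin interneuron markers its sum was 680 CPM, against 565 to 620 in the other knockdown libraries and 558 to 613 with scramble and morphine. Most of that sum came from Gad1 and Kcnc1, with means of 213.6 and 174.7 CPM, while Pvalb had a mean of 14.4. Of these markers 9 lay above 0, none was at 0 counts, and their part was not tested.

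The lecticans and the hyaluronan synthase lay within the spread of replicates. Bcan stood at -0.06 (SE 0.07), Ncan at -0.04 (SE 0.07), Vcan at 0.16 (SE 0.13) and Acan at 0.26 (SE 0.23), with edgeR adjusted p between 0.651 and 0.853. The 95% intervals of the fold ran from 0.863 to 1.07 for Bcan and from 0.883 to 1.07 for Ncan. For Tnr and Ptprz1 they ran from 0.882 to 1.11 and from 0.899 to 1.14. Without knockdown replicate 5, Tnr was at -0.12 (SE 0.06). Changes beyond those bounds in either direction lie outside the intervals of these 4 genes, while Acan, at 68 to 196 counts per library, allowed a fold from 0.861 to 1.67. Has3 was at 0.09 (SE 0.18), and 352 of its exonic bases overlap Chtf8 on the other strand.

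**Figure D4:**
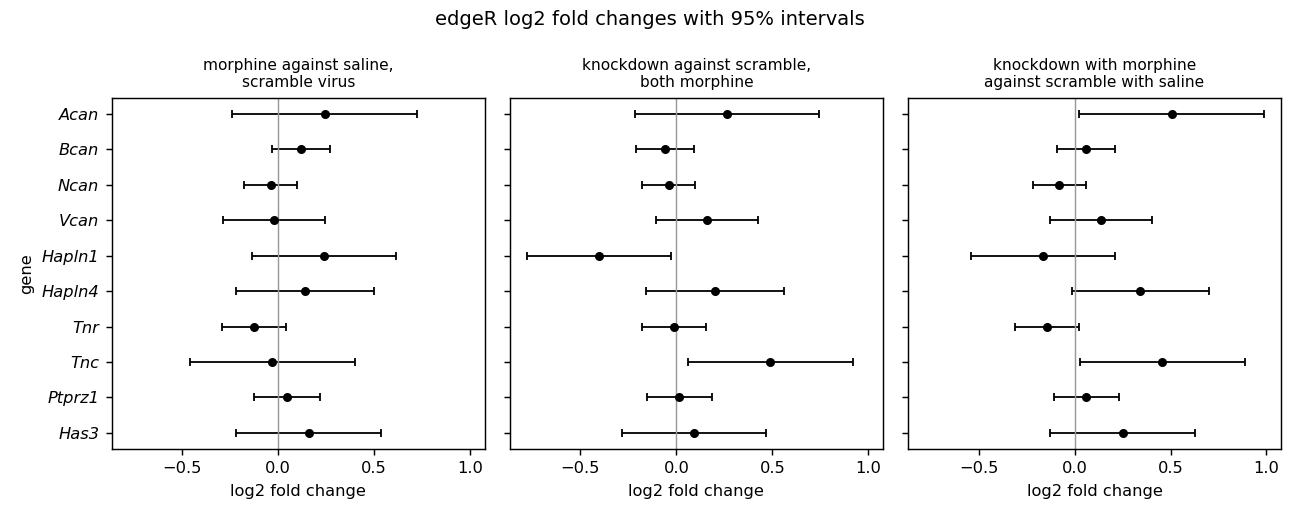
Log2 fold changes of the 10 net genes from edgeR (points) with 95% intervals (bars) in the 3 comparisons. Intervals are narrowest for Bcan, Ncan, Tnr and Ptprz1 and widest for Acan and Tnc, and 0 of 10 genes passed after adjustment over all genes in any panel.

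In the third comparison both virus and drug differed, as knockdown mice given morphine were set beside scramble mice given saline. It shares its libraries with both comparisons above. None of the net genes passed. Above 0 lay 7 of them, where 49.6% of all genes did, and their median was 0.10 on the log2 scale beside -0.002 over all genes. In edgeR 0 of 10 were called, beside 0.0137% of all genes, and 2 of 10 had an unadjusted p under 0.05 where 9.35% of all genes did. DESeq2 called 0 of 10, beside 147 genes over all, and limma voom called 0 of 10.

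Acan was the 1 net gene of 10 whose libraries did not overlap, as held for 4.34% of all genes. It gave 2.96, 2.88, 3.22 and 3.08 CPM with the knockdown and 2.09, 2.81, 2.35 and 1.3 in saline replicates 2, 3, 4 and 5. All 4 knockdown libraries lay above all saline libraries, and saline replicate 5 was the lowest of the 12, at 68 counts. The means were 3.04 ± 0.14 against 2.14 ± 0.63 CPM (SD, n = 4), which is 0.51 on the log2 scale (SE 0.23, edgeR adjusted p = 0.517). Without saline replicate 5 it was 0.33 (adjusted p = 0.761). Scramble with morphine lay between, at 2.53 ± 0.49 CPM, and overlapped both.

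Tnc was at 0.46 (SE 0.20, edgeR adjusted p = 0.509) and Hapln4 at 0.34 (SE 0.17, adjusted p = 0.557). Tnr was at -0.14 (SE 0.08, adjusted p = 0.611): 3 knockdown libraries, at 171.2, 181.2 and 173.8 CPM, lay below all saline libraries, and knockdown replicate 5, at 223.0 CPM, above them. Without knockdown replicate 5 Tnr was at -0.24 (adjusted p = 0.0821). Hapln1 was at -0.17 (SE 0.17, adjusted p = 0.821), and at -0.41 (adjusted p = 0.139) without knockdown replicate 5, where 0.244% of all genes passed and 0.0621% were lower. Without that library and scramble saline replicate 4, edgeR called 2 of 10 net genes, both lower, Hapln1 at -0.52 (adjusted p = 0.0111) and Tnr at -0.24 (adjusted p = 0.0403), where 4.84% of all genes passed and 2.31% were lower. Has3 was at 0.25 (SE 0.18), Vcan at 0.14 (SE 0.13), Ptprz1 at 0.06 (SE 0.08), Bcan at 0.06 (SE 0.07) and Ncan at -0.08 (SE 0.07). Without saline replicate 4 Bcan was at -0.0088, Has3 at 0.38 and Hapln1 at -0.27.

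Apart from the group means, the 10 genes did not vary as 1 unit. Pearson's r of within-group deviations of log2 CPM was computed for all 45 pairs over 12 libraries, with an exact permutation test within groups. The median r was 0.03, 26 pairs were above 0, and 0 of 45 passed after adjustment, with 2 at an unadjusted p under 0.05. Vcan and Ptprz1 had r = 0.72 (exact two-sided permutation p = 0.0255, adjusted 0.59 over 45 pairs). Their Spearman's rho was 0.69 (exact permutation p = 0.0765, adjusted 0.623). Without the 2 libraries farthest from the median of Vcan, r was 0.55. Bcan and Has3 ran against each other, with r = -0.76 (exact permutation p = 0.0268, adjusted 0.59) and rho = -0.75 (exact permutation p = 0.0255, adjusted 0.623), and r = -0.60 without the 2 farthest libraries. Hapln1 and Tnr were both at their highest of the 12 libraries in knockdown replicate 5. They had r = 0.73 (exact permutation p = 0.102, adjusted 0.59) and rho = 0.52 (exact permutation p = 0.15, adjusted 0.71), and r = 0.50 without the 2 farthest. Neighbours on the chromosome were not tested against the other pairs. Vcan and Hapln1 had r = 0.23 (exact permutation p = 0.651, adjusted 0.972) and rho = 0.26 (exact permutation p = 0.545, adjusted 0.945), and r = 0.01 without the 2 farthest. Ncan and Hapln4 had r = 0.11 (exact permutation p = 0.813, adjusted 0.98) and rho = 0.30 (exact permutation p = 0.442, adjusted 0.903), and r = -0.11 without them. All pairs share the same libraries and scaling.

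**Figure D5:**
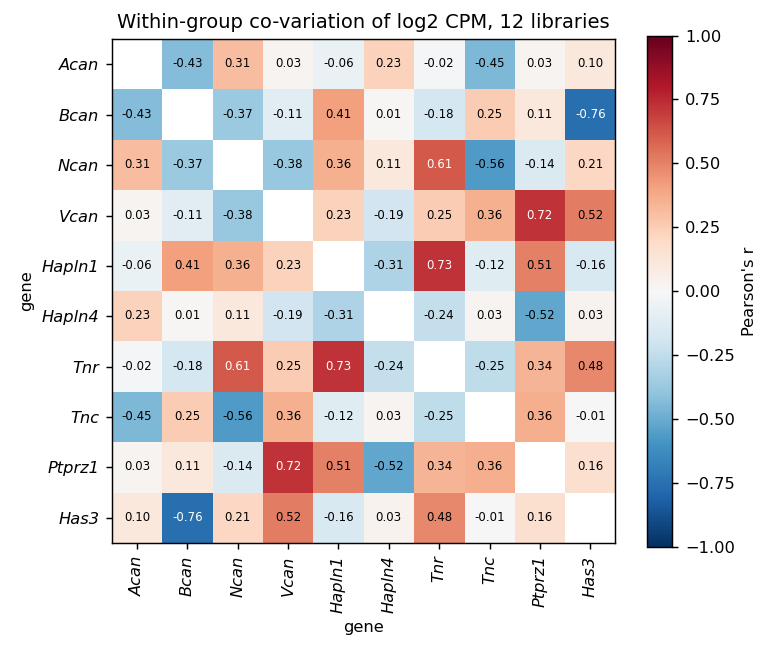
Pearson's r between net genes over 12 libraries, computed on deviations of log2 CPM from the group mean; red is positive, blue negative and the number in each cell is r. Values run from -0.76 for Bcan with Has3 to 0.73 for Hapln1 with Tnr, and 0 of 45 pairs passed after adjustment.

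The genes that build, cut and read the net were described from 5 lists of 76 genes, of which 73 passed the filter. In none of the 3 comparisons did edgeR call a gene of these lists after adjustment over all genes. At an unadjusted p under 0.05 there were 5, 14 and 12 of 73 in the order of the comparisons, 6.85, 19.2 and 16.4%, beside 3.48, 12 and 9.35% of all genes. The 78 marker genes of cell types gave 3, 18 and 25 in the same order, 3.85, 23.1 and 32.1%. In the comparisons with the knockdown, a share above that of all genes was thus not particular to the 5 lists. Those 5 lists were chosen with earlier results of these data known.

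The list on making and sulphating chondroitin chains had 21 genes tested, among them the sulphatase Arsb. Of these, 12 lay above 0 between knockdown and scramble with morphine, with a median log2 fold change of 0.04. Xylt1, which adds the first sugar of the chain to the protein, was at 94.3 ± 8.77 against 74.1 ± 5.05 CPM (SD, n = 4), which is 0.35 on the log2 scale (SE 0.08, edgeR adjusted p = 0.248) without overlap. In the first comparison it was at -0.18 (SE 0.08, adjusted p = 0.999); these comparisons share the scramble morphine libraries. In the third comparison Dse, which turns chondroitin into dermatan, was at 0.50 (SE 0.14, adjusted p = 0.339).

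Among 20 tested enzymes that cleave the matrix, 12 lay above 0 in the second comparison. Adamts15, a protease that cuts lecticans, was at 7.85 ± 1.27 against 5.39 ± 1.02 CPM (SD, n = 4), which is 0.54 on the log2 scale (SE 0.16, edgeR adjusted p = 0.289), and at 0.57 (SE 0.16, adjusted p = 0.341) in the third. Plat, tissue plasminogen activator, was at 0.20 (SE 0.08, adjusted p = 0.999) in the first. Of 6 inhibitors of such enzymes, 5 lay above 0 in each comparison. Timp3 was at 123.5 ± 18.04 with the knockdown, 99.7 ± 11.8 with scramble and morphine and 84.1 ± 9.99 CPM with scramble and saline (SD, n = 4), which is 0.31 on the log2 scale (SE 0.11, adjusted p = 0.327) in the second comparison and 0.56 (SE 0.11, adjusted p = 0.164) in the third. Timp4 was at 0.38 (SE 0.17, adjusted p = 0.999) in the first. Fibroblast and mural cell markers, all 11 above 0 in each comparison, summed to 248 to 371, 269 to 395 and 373 to 518 CPM with scramble and saline, scramble and morphine and the knockdown, and their part in the Timp3 values was not tested.

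Receptors and partners of the net included 19 tested genes, 11 of them above 0 in the second comparison, with a median of 0.08. Itga9, a tenascin-binding integrin, was at 0.35 (SE 0.14, edgeR adjusted p = 0.362). Mdk, midkine, a ligand of Ptprz1, was at 7.63 ± 0.74 CPM with scramble and morphine against 5.71 ± 0.48 with scramble and saline (SD, n = 4) in the first comparison, which is 0.42 on the log2 scale (SE 0.16, adjusted p = 0.999) without overlap, and at 0.35 (SE 0.16, adjusted p = 0.513) in the third. Of the 7 other net and link genes, Nptx2, a pentraxin at net-bearing cells, was at -0.14 (SE 0.14) in the first comparison and 0.22 (SE 0.14, adjusted p = 0.573) in the second. Cspg5, neuroglycan C, was at -0.10 (SE 0.06, adjusted p = 0.629) in the third. The hyaluronan synthases Has1 and Has2 stood at 0.226 and 0.060 CPM per kilobase, below Has3 at 0.455.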

How the data were processed

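The authors deposited whole-number counts per gene for 12 libraries. Libraries were oligo(dT)-selected and dUTP-stranded, per the labels' protocols. Per the submitters' processing notes, tools were HISAT2 2.0.4, StringTie 1.3.4d, cutadapt 1.9, edgeR and DESeq2 on mm10, with no roles stated. The sources used here do not give the annotation release or the use of strand in counting, so genes overlapped on the other strand are uncertain.

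Groups came from the treatment label and replicate numbers from the titles. Symbols, positions and exon lengths came from GENCODE M21 on the assembly of mm10; 260 of 55401 IDs had no symbol. The test was edgeR 4.0.16 (R 4.3.3): filterByExpr (minimum count 10), TMM, a robust quasi-likelihood fit with 1 mean per group over 12 libraries, and Benjamini-Hochberg adjustment over 21958 genes at 0.05. P-values are two-sided. CPM use TMM-scaled library sizes; correlations used log2 CPM with a prior count of 1. The steps were tested on simulated counts. Of genes given a log2 change of 0.5, 23.1, 33.3 and 32.3% were called in the order of the comparisons. At a log2 change of 1 these were 58.2, 60 and 58.8%, so changes of such sizes can be missed.

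The net genes and lists were chosen with earlier results of these data known. Every net gene was named, and of each pathway list the gene with the smallest p and at least 1 CPM per comparison. Hapln2, Hapln3, Has1 and Has2 were added after their values were seen. Alternatives were other scalings, filters, DESeq2 1.42.0, limma 3.58.1 voom, the compared groups alone, a replicate block, the share at CT010467.1 as a covariate and libraries left out.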

Additional observations from a re-analysis of the deposited data

Results flagged for a closer look

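In 66 sets of 4 libraries tested, 3 held a library far from the other 3 of its group, by Dixon's criterion on the gap over the group's range; chance alone gives about 1 in 20. Bcan stood at 175.7 CPM in scramble saline replicate 4, against 213.0 to 218.4 in the other saline libraries. Has3 stood at 2.53 CPM in scramble morphine replicate 1, against 3.03 to 3.11 in the others. The summed CPM of meningeal fibroblast and mural cell markers was 370.8 in scramble saline replicate 5, against 248.3 to 266.6 in the others. The Hapln1 value of knockdown replicate 5 did not reach that gap.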

How the results depend on the processing

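Of 660 values of a net gene under an alternative, 627 kept their direction and their side of the threshold, 4 passed where the main value had not, and 29 reversed sign, all in 9 of the 30 gene and comparison values and none of those past the threshold. Net genes called moved only without knockdown replicate 5 (0 to 1 in the second comparison with single libraries left out, Hapln1) and without both scramble saline replicate 4 and knockdown replicate 5, which gave 1 (Hapln1, -0.65) in the second and 2 (Hapln1, -0.52, adjusted p = 0.0111; Tnr, -0.24, adjusted p = 0.0403) in the third, in edgeR; that pair was left out with its values known, and fewer samples differ in those fits. Genes called over all, 0, 0 and 3 in the order of the comparisons, were 4, 157 and 147 with DESeq2; 1 in the first and 5 in the third with the compared groups alone; 2 in the second and 5 in the third with no filter; 0 in the third with library totals, limma voom or the share at CT010467.1; 1286 and 1078 in the second and the third without both libraries; and with single libraries left out 0 to 375 in the second and 0 to 55 in the third. The cause was not tested.

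Values that reversed, on the log2 scale: in the first comparison Vcan (4.8e-05 with library totals, 0.034 with limma voom, 0.016 without both libraries, and -0.088 to 0.059 with single libraries left out), Tnc (0.011 with limma voom, 0.167 with the share at CT010467.1, and -0.124 to 0.112), Ptprz1 (-0.013 with the replicate block) and Hapln4 (-0.05 with that share); in the second Ptprz1 (-0.048 with library totals, -0.001 with limma voom, -0.035 with that share, -0.042 without both libraries, and -0.047 to 0.093), Ncan (0.097 with that share, and -0.084 to 0.0067) and Tnr (0.09 with that share, and -0.115 to 0.022); in the third comparison Bcan (-0.0088 to 0.089) and Ptprz1 (-0.025 without both libraries). The share at CT010467.1 differs between groups without overlap for scramble with morphine, so it and the group cannot be told apart.

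The replicate numbers were not used to pair the samples in the main fit. Deviations of 9 same-numbered pairs correlated between -0.01 and 0.12, with a median of 0.034 and 1 of them over 0.1. The 39 other pairs between groups had a median of -0.014, also with 1 over 0.1. Of 12 libraries, 7 correlated best with their own number, a larger share than that of same-numbered pairs, 9 beside 39 others. Whether the numbers mark a pairing or a batch was not tested. With the replicate block edgeR called 1, 2 and 0 genes in the order of the comparisons and 0 net genes. Pairs of net genes called stayed at 0 under all alternatives run. Acan, Has3 and Tnc had the fewest counts of the net genes, with means of 142.4, 162 and 336.2 per library; the part of depth in their spread was not tested.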

Other observations

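Link protein and net-to-cell ratios were computed per library as values. They reuse the CPM of the genes described above and add no separate result. Hapln1 over Hapln4, per kilobase, was 0.111, 0.099 and 0.082 in knockdown replicates 1, 2 and 3 and 0.227 in knockdown replicate 5; it ran from 0.167 to 0.214 with scramble and morphine. With scramble and saline it was 0.114 in replicate 4 and between 0.186 and 0.201 in the others. Acan over Pvalb, on the CPM scale, had medians of 0.156, 0.178 and 0.226 in scramble with saline, scramble with morphine and the knockdown, with ranges of 0.093 to 0.168, 0.149 to 0.260 and 0.148 to 0.255 that overlapped.

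Hapln2, the link protein gene beside Bcan, was at 11.98 ± 3.99 CPM with the knockdown, 14.6 ± 3.44 with scramble and morphine and 14.8 ± 2.35 with scramble and saline (SD, n = 4). In the second comparison it was at -0.28 on the log2 scale (SE 0.23, edgeR adjusted p = 0.666), where all 10 myelin markers lay below 0 with a median of -0.32. The part of those markers in the Hapln2 values was not tested.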
